A study of Mus musculus with 5 samples.

Results

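The 10 genes described here encode bone morphogenetic proteins (BMPs) and growth differentiation factors (GDFs), taken by name as Bmp1 to Bmp7, Bmp8a, Gdf5 and Gdf6 from the 24100 genes of a mouse RNA sequencing table. All 10 were in the table, and 9 passed the filter on low counts. Quiescent melanocyte stem cells (McSC), the reserve cells of the follicle's pigment lineage, were sorted from back skin of Dct-eGFP+ males of a CD1/C57Bl6J mix at postnatal days 60 and 62, in the second telogen (rest phase), with 4 males pooled in each of 2 libraries. Melanocytes were sorted at postnatal day 10, in full anagen (growth phase), from Dct-EGFP+ Lef1-RFP+ males of the same mix, with 3, 2 and 4 males pooled in 3 libraries. Cells of both groups were green for the reporter of Dct, a melanoblast gene, had medium to low integrin α6, and were negative for the surface markers CD31, CD34, CD45, CD140a and Sca1. For melanocytes the gate further required Lef1-RFP and c-Kit. The groups differ at once in age, in the stage of the hair cycle, in their reporters and in the gate, and the parts of these in any difference cannot be told apart.

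BMPs and GDFs are secreted dimers that bind pairs of type I and type II receptor kinases. The receptors phosphorylate SMAD1, SMAD5 and SMAD9, which join SMAD4 in the nucleus and switch on genes such as those of the Id family. Antagonists such as noggin hold the ligands outside the cell. In the hair follicle BMP signals are known to keep stem cells at rest, and the dermal papilla, hair matrix and surrounding dermis are known sources of the ligands.

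Total counts ran from 17512381 (melanocyte replicate 3) to 124530834 (quiescent McSC replicate 2), and a count of 3 was worth 0.171 and 0.0241 CPM of the unscaled total in these libraries. All other CPM are relative to totals scaled by TMM (trimmed mean of M-values). Of 12 pigment lineage markers, 1 was higher in the melanocyte libraries, 4 were lower and 7 were not called. They summed to 21640 and 22870 CPM in the quiescent libraries and to 3299, 19120 and 20870 CPM in melanocyte replicates 1, 2 and 3. Melanocyte replicate 1 therefore stood apart: its Dct was 1073 CPM against 5777 and 6505 CPM in the other melanocyte libraries. The 4 lower genes, Mitf, Pax3, Kit and Sox10, were below both quiescent libraries in all 3 melanocyte libraries. Mitf had 1177 and 1033 CPM in the quiescent libraries and 43.7, 120.5 and 139.4 CPM in the melanocyte libraries. The higher gene, Mc1r, had 17.87 and 12.85 CPM against 64.87, 317.6 and 374.5 CPM. Among those not called, Tyr, Tyrp1, Pmel, Mlana and Slc45a2 were above both quiescent libraries in melanocyte replicates 2 and 3. In melanocyte replicate 1 these genes were below both. Tyr had 400 and 334.4 CPM against 219.2, 1456 and 1676 CPM. Dct and Ednrb, also not called, were below both quiescent libraries in all 3 melanocyte libraries. Markers of fibroblasts and dermal papilla, of which 10 of 14 were higher in the melanocyte libraries, summed to 158 and 99.9 CPM in the quiescent libraries and to 6253, 2356 and 2218 CPM in the melanocyte libraries. Hair follicle and hair shaft markers, of which 15 of 16 were higher, summed to 157.4 and 102.2 CPM against 4542, 5981 and 4200 CPM. Endothelial markers (9 of 10 higher, 1 lower) summed to 11.6 and 13.0 CPM against 65.0, 70.8 and 37.3 CPM, and immune markers (6 of 12 higher, 2 lower) to 35.7 and 27.7 CPM against 79.2, 45.2 and 59.9 CPM. Of the muscle and pericyte markers 8 of 10 were higher and 2 lower. All 10 summed to 852.1 and 837.4 CPM in the quiescent libraries against 328.2, 196.1 and 158.6 CPM. These quiescent sums were mostly Mylk, a lower gene, with 767.9 and 756.6 CPM against 41.11, 14.43 and 15.29 CPM. The other lower gene, Cspg4, had 78.81 and 75.31 CPM against 38.45, 30.91 and 25.66 CPM. Of the 8 higher genes, Tagln had the most in the quiescent libraries, 3.754 and 3.58 CPM, against 44.94, 31.79 and 28.92 CPM. Epidermal keratinocyte markers (6 of 14 higher, 6 lower) and Schwann cell markers (3 of 9 higher, 3 lower) were called equally often in each direction. The keratinocyte markers summed to 3406 and 4558 CPM in the quiescent libraries against 5337, 4642 and 3882 CPM. Among them Krt10 was lower (657.1 and 1261 CPM against 70.46, 14.28 and 37.1 CPM) and Krt5 higher (661.7 and 755.7 CPM against 1786, 1332 and 1245 CPM). The Schwann cell markers summed to 854.1 and 1077 CPM against 207.2, 275 and 217.1 CPM. None of the fibroblast markers was at 0 in a whole group, and Krt34, a hair keratin, and Cldn5, an endothelial junction gene, were at 0 in both quiescent libraries. The part of these other cells in the ligand values below was not tested.

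The stretch of 250 bases before the RefSeq start site (GRCm38.p6, which is mm10) was at hand for 4 of the 10 genes, Bmp4, Bmp5, Bmp6 and Bmp8a. It is shown for Bmp4 and Bmp8a, which were higher in the melanocyte libraries, and for Bmp5, which did not pass the test. The Bmp6 stretch was searched but is not shown, because it lies inside a transcribed, untranslated exon of the GENCODE annotation and so may not be upstream of every start site. The Bmp4 stretch is chr14:46390670-46390919 (minus strand), the Bmp5 stretch chr9:75775115-75775364 (plus strand) and the Bmp8a stretch chr4:123343253-123343502 (minus strand). Each is written 5′ to 3′ on the gene's strand, ends at the base before the start site, and carries in capitals every GC box (GGGCGG, or CCGCCC on the other strand), the element bound by Sp factors.
Bmp4: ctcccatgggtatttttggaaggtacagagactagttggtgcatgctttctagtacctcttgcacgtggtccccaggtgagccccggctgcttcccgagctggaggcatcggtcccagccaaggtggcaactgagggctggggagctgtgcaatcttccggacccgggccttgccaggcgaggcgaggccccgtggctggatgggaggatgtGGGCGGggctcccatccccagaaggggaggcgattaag
Bmp5: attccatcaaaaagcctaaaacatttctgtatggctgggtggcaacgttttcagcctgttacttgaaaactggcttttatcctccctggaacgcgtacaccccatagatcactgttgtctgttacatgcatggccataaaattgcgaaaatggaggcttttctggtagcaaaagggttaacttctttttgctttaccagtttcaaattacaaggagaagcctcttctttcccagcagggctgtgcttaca
Bmp8a: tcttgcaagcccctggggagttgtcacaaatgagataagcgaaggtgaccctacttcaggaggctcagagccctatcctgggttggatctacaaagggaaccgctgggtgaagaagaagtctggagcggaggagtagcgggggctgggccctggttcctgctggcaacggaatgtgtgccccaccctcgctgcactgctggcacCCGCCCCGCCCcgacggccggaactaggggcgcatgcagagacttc
The Bmp4 stretch has 63.2% G and C with 1 GC box, the Bmp8a stretch 62% with 2 overlapping ones, and the Bmp5 stretch 42.8% with none. Over 32851 mouse promoter stretches of the same length the median was 52.4%, and 32.7% held a GC box. Other motifs were searched on both strands. An element of SMAD1 and SMAD5, spelled GGCGCC, was in none of the 4 stretches and in 9.59% of all. The core box of many start sites, spelled TATAAA, was in none of the 4 and in 12.4% of all. The core motif of LEF and TCF factors, spelled CTTTGA, was in none of the 4 and in 13.8% of all. The letters are a description of these stretches and were not set against binding data.

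The comparison of melanocytes with quiescent McSC asked how the supply of BMP ligand transcripts differed between the sorted populations. Of the 10 genes, 7 (Bmp1, Bmp2, Bmp3, Bmp4, Bmp6, Bmp7 and Bmp8a) were higher in the melanocyte libraries, as were 29.1% of all 16953 tested genes. None was higher in the quiescent libraries, as were 26.2% of tested genes. Called in either direction were 55.4% of tested genes. Bmp5 and Gdf6 did not pass the threshold, and Gdf5 had too few counts to be tested. All 9 fold changes were positive, with a median log2 fold change of 2.65 against 0.03 over all tested genes. In each of the 10 genes every melanocyte library lay above both quiescent libraries, a pattern seen in that direction in 38.1% of tested genes and in either direction in 74.5%. The test was edgeR's quasi-likelihood F-test with Benjamini-Hochberg adjustment over all tested genes and a threshold of 0.05, and a log2 fold change is melanocyte minus quiescent McSC with its standard error (SE). In pools of cells a larger number of ligand-making cells and more transcript per cell cannot be told apart.

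**Figure D1:**
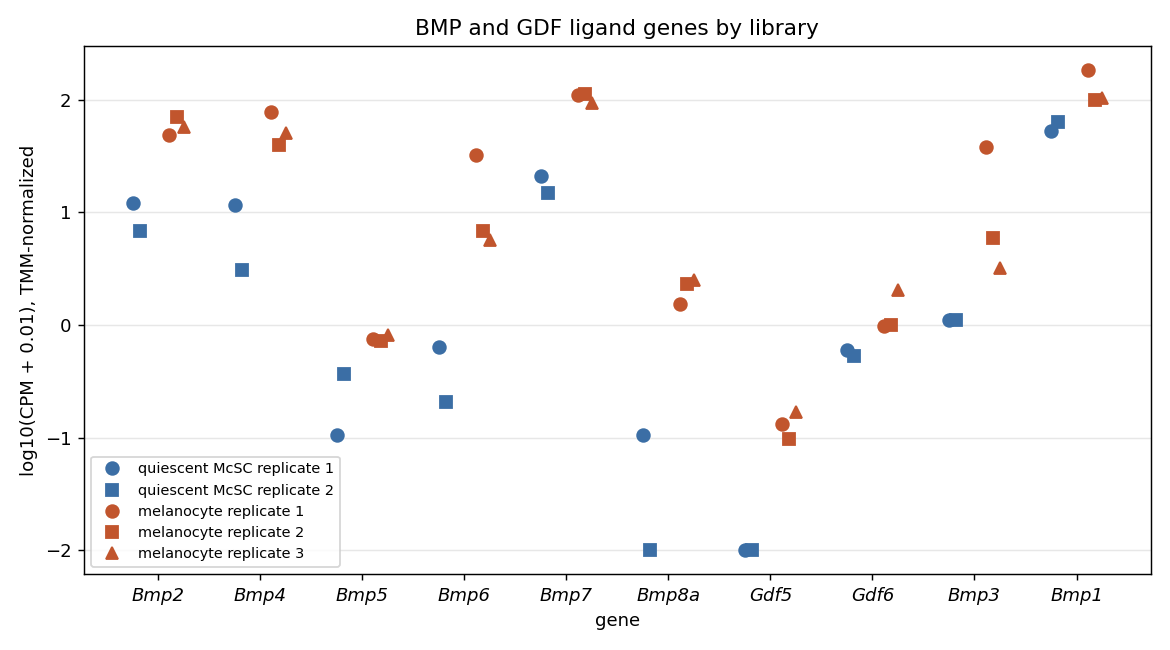
Level of each of the 10 genes in each library, as log10 of TMM-normalized CPM plus 0.01; blue symbols are the 2 quiescent McSC libraries and orange symbols the 3 melanocyte libraries, with the shape giving the replicate number. The orange symbols lie above the blue ones in every gene, and melanocyte replicate 1 (circle) lies apart from the other melanocyte libraries in Bmp3 and Bmp6.

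Bmp2 and Bmp4 encode the closely related ligands that share the type I receptors BMPR1A and BMPR1B. Bmp2 (chromosome 2, 133552159 to 133562896, plus strand) had 12.0 and 6.80 CPM in quiescent McSC replicates 1 and 2 and 48.9, 70.6 and 57.0 CPM in melanocyte replicates 1, 2 and 3. The groups were far apart, with means of 9.41 ± 3.69 CPM (SD, n = 2) and 58.8 ± 10.9 CPM (SD, n = 3). Its log2 fold change was 2.65 ± 0.31 (SE), with an edgeR adjusted p of 0.00085. Bmp4 (chromosome 14, 46383525 to 46390669, minus strand) had 11.5 and 3.09 CPM in the quiescent libraries and 77.9, 39.8 and 50.5 CPM in the melanocyte libraries. Quiescent replicate 1 held 3.72 times the level of replicate 2, and even so lay far below the lowest melanocyte library. The means were 7.29 ± 5.94 CPM (SD, n = 2) and 56.1 ± 19.7 CPM (SD, n = 3), and the log2 fold change was 2.95 ± 0.62 (SE), with an edgeR adjusted p of 0.00854. It was 4.18 without quiescent replicate 1 and 2.29 without quiescent replicate 2, and stayed called in both. Of the Bmp4 exon bases, 3.96% lie opposite exons of Gm15217, whose reads cannot be separated in libraries without strand.

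Bmp5, Bmp6, Bmp7 and Bmp8a form the branch of ligands that use the type I receptor ACVR1 as well. Bmp7 (chromosome 2, 172868012 to 172940321, minus strand) had 20.9 and 14.8 CPM in the quiescent libraries and 110.7, 112.6 and 92.8 CPM in the melanocyte libraries. All 3 melanocyte libraries agreed closely, including replicate 1. The means were 17.8 ± 4.34 CPM (SD, n = 2) and 105.3 ± 10.9 CPM (SD, n = 3). Its log2 fold change of 2.57 ± 0.20 (SE) had the smallest adjusted p of the 9 tested genes, 0.000216 by edgeR, and ranged only from 2.33 to 2.83 when single libraries were left out.

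Bmp6 (chromosome 13, 38345716 to 38500314, plus strand), known from skin and from iron control in the liver, was nearly silent in quiescent McSC. It had 0.626 and 0.196 CPM there, from 39 and 22 counts, and 32.3, 6.88 and 5.67 CPM in melanocyte replicates 1, 2 and 3. Replicate 1 was 5.71 times as high as replicate 3, but the lowest melanocyte library was still well above both quiescent ones. The means were 0.411 ± 0.304 CPM (SD, n = 2) and 15.0 ± 15.1 CPM (SD, n = 3), and the log2 fold change was 5.24 ± 1.12 (SE), with an edgeR adjusted p of 0.00885. It was 4.00 without melanocyte replicate 1 (adjusted p = 0.0009), 6.24 without quiescent replicate 1 (0.0366), and 4.57 without quiescent replicate 2, where the edgeR call was lost (adjusted p = 0.0655). Of the Bmp6 exon bases, 5.74% lie opposite exons of Txndc5.

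Bmp8a (chromosome 4, 123312645 to 123343252, minus strand), best known from germ cells and brown fat, had 6 counts in quiescent replicate 1 and 0 in replicate 2, the deepest library. The melanocyte libraries held 62, 157 and 47 counts, which is 1.53, 2.30 and 2.51 CPM. The gene was thus near or under detection in one group and low but present in every library of the other. Its log2 fold change was 5.66 ± 1.13 (SE), with an edgeR adjusted p of 0.0069, and the ratio of summed, scaled counts was 60.6. Without quiescent replicate 2 the log2 fold change was 4.41. Without quiescent replicate 1, which leaves 0 counts in that group, melanocytes were at least 77.9-fold higher (against 3 counts). This bound covers counting error in 1 quiescent library only. It does not bound the difference between the groups, since the library left out held 6 counts. Sequence stretches of 50 bases shared with its neighbour copy Bmp8b made up 8.74% of those in Bmp8a, so a few reads may be exchanged between these genes.

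Bmp5 (chromosome 9, 75775365 to 75900316, plus strand), a ligand of skeletal and skin development, had 0.0963 and 0.357 CPM in the quiescent libraries, from 6 and 40 counts. It had 0.74, 0.704 and 0.802 CPM in the melanocyte libraries, which lay close together. The means were 0.227 ± 0.185 CPM (SD, n = 2) and 0.749 ± 0.0496 CPM (SD, n = 3). The log2 fold change of 1.66 ± 0.61 (SE) did not pass, with an edgeR adjusted p of 0.0602. It was 1.06 without quiescent replicate 1 (adjusted p = 0.193), and passed without quiescent replicate 2 (2.92, adjusted p = 0.0281). Of the Bmp5 exon bases, 46.7% lie opposite exons of the antisense gene Gm26903, so these reads are not all certain to be Bmp5.

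**Figure D2:**
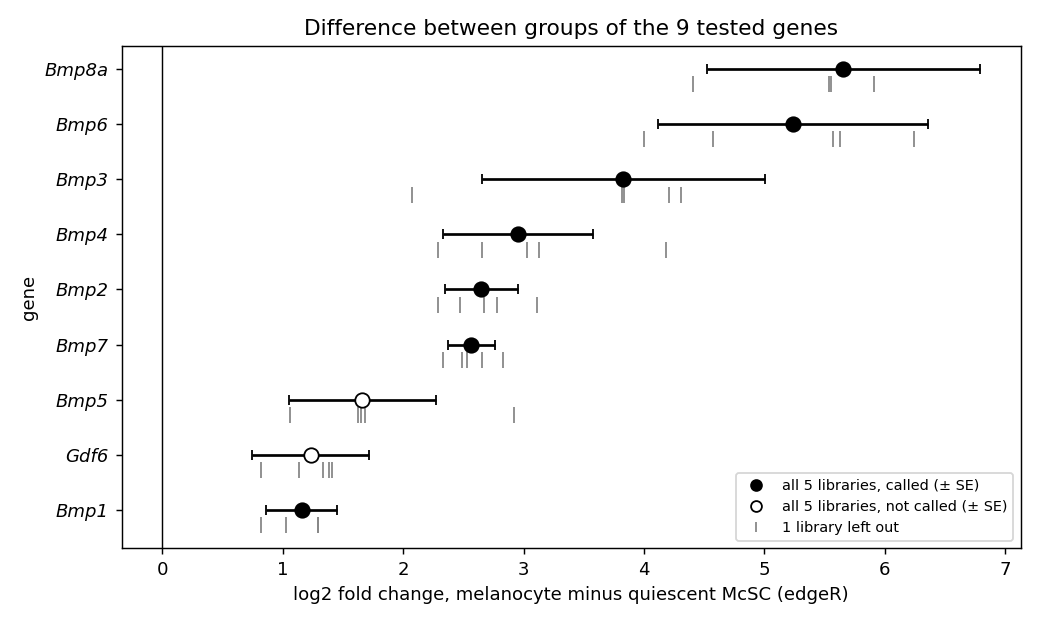
Log2 fold change of the 9 tested genes, melanocyte minus quiescent McSC, with its SE as a bar; filled points passed the edgeR threshold and open points did not, and grey ticks give the value with each single library left out. All points and ticks lie right of 0; the tick of Bmp8a without quiescent replicate 1 is not drawn, because that group then holds 0 counts.

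Gdf5 and Gdf6 encode ligands known from joints and the skeleton. Gdf6 (chromosome 4, 9844372 to 9862345, plus strand), also known from neural crest, had 0.594 and 0.518 CPM in the quiescent libraries and 0.962, 0.997 and 2.03 CPM in the melanocyte libraries. Melanocyte replicate 3, the shallowest library, was the highest, with 38 counts. The means were 0.556 ± 0.0535 CPM (SD, n = 2) and 1.33 ± 0.608 CPM (SD, n = 3). The log2 fold change of 1.23 ± 0.49 (SE) did not pass, with an edgeR adjusted p of 0.0734. It passed without melanocyte replicate 1 (1.41, adjusted p = 0.0438). Gdf5 (chromosome 2, 155941023 to 155945367, minus strand) had 0 counts in both quiescent libraries and 5, 6 and 3 counts in the melanocyte libraries. Against 3 counts over the quiescent group, the observed melanocyte counts were 6.38-fold higher after scaling. This covers counting error in the quiescent group only, and not that of the few melanocyte counts. Its exon bases lie opposite Gm15557 over 40.3% of their length, so these few reads may belong to either gene.

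Bmp3 (chromosome 5, 98854415 to 98884053, plus strand) encodes a divergent ligand known to oppose other BMPs in bone. It had 1.11 and 1.10 CPM in the quiescent libraries and 37.8, 5.91 and 3.21 CPM in melanocyte replicates 1, 2 and 3. The quiescent libraries were the same to within counting error, while melanocyte replicate 1 stood 11.8 times above replicate 3. The means were 1.10 ± 0.00616 CPM (SD, n = 2) and 15.6 ± 19.2 CPM (SD, n = 3), and the log2 fold change was 3.83 ± 1.18 (SE), with an edgeR adjusted p of 0.0335. Without melanocyte replicate 1 it was 2.07 with a smaller adjusted p, 0.00347. The edgeR call was lost without quiescent replicate 1 (log2 fold change 3.83, adjusted p = 0.152) or 2 (3.82, 0.156), where the fold hardly moved, and by limma-voom (log2 fold change 3.11, adjusted p = 0.0629).

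Bmp1 (chromosome 14, 70474555 to 70520716, minus strand) carries the family's name but encodes a secreted metalloprotease that trims procollagens and cleaves the BMP antagonist chordin. It had 52.7 and 63.3 CPM in the quiescent libraries and 183.6, 99.4 and 104.5 CPM in the melanocyte libraries. Even the lowest melanocyte library was above the highest quiescent one, and replicate 1 was again the highest. The means were 58.0 ± 7.46 CPM (SD, n = 2) and 129.2 ± 47.2 CPM (SD, n = 3). Its log2 fold change of 1.16 ± 0.30 (SE) was the smallest of the 9 tested genes, with an edgeR adjusted p of 0.0178. The call was lost without quiescent replicate 1 (1.03, adjusted p = 0.115) or 2 (1.29, adjusted p = 0.0704), and the value was 0.82 without melanocyte replicate 1 (adjusted p = 0.00152).

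Levels were compared between genes as CPM per kb of annotated exon. In melanocytes Bmp7 (26.2 ± 2.72 CPM per kb, SD, n = 3), Bmp4 (24.9 ± 8.75), Bmp2 (16.6 ± 3.07) and Bmp1 (14.6 ± 5.32) led, and each overlapped its neighbour in this order across libraries. Bmp6 (3.84 ± 3.86) and Bmp3 (2.11 ± 2.60) followed, overlapping each other but not Bmp1. Bmp8a (0.879 ± 0.215) overlapped Bmp3, while Gdf6 (0.377 ± 0.172), Bmp5 (0.186 ± 0.0123) and Gdf5 (0.0534 ± 0.0156) each lay below the gene before them in all libraries. In quiescent McSC the protease gene Bmp1 came first, at 6.54 ± 0.841 CPM per kb (SD, n = 2), with no overlap with Bmp7 at 4.44 ± 1.08. Bmp7, Bmp4 (3.24 ± 2.64) and Bmp2 (2.65 ± 1.04) overlapped in turn. Gdf6 (0.157 ± 0.0152), Bmp3 (0.149 ± 0.000833) and Bmp6 (0.105 ± 0.0778) overlapped in turn and were followed by Bmp5, Bmp8a and Gdf5, all under 0.1 CPM per kb.

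Summed over the 9 ligand genes without Bmp1, the level was 14.2 and 7.39 CPM per kb in quiescent McSC replicates 1 and 2 and 90.5, 69.6 and 65.4 CPM per kb in melanocyte replicates 1, 2 and 3. Bmp2, Bmp4 and Bmp7 together held 96.2% and 94.1% of this sum in the quiescent libraries. They held 94.2% in both melanocyte replicates 2 and 3, but 83.9% in replicate 1, where Bmp6 held 9.16% and Bmp3 5.64%. Every melanocyte total lay above both quiescent totals. Within the sum, Bmp4 was the largest part of melanocyte replicate 1 (38.3%) and Bmp7 the largest of the other 4 libraries.

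**Figure D3:**
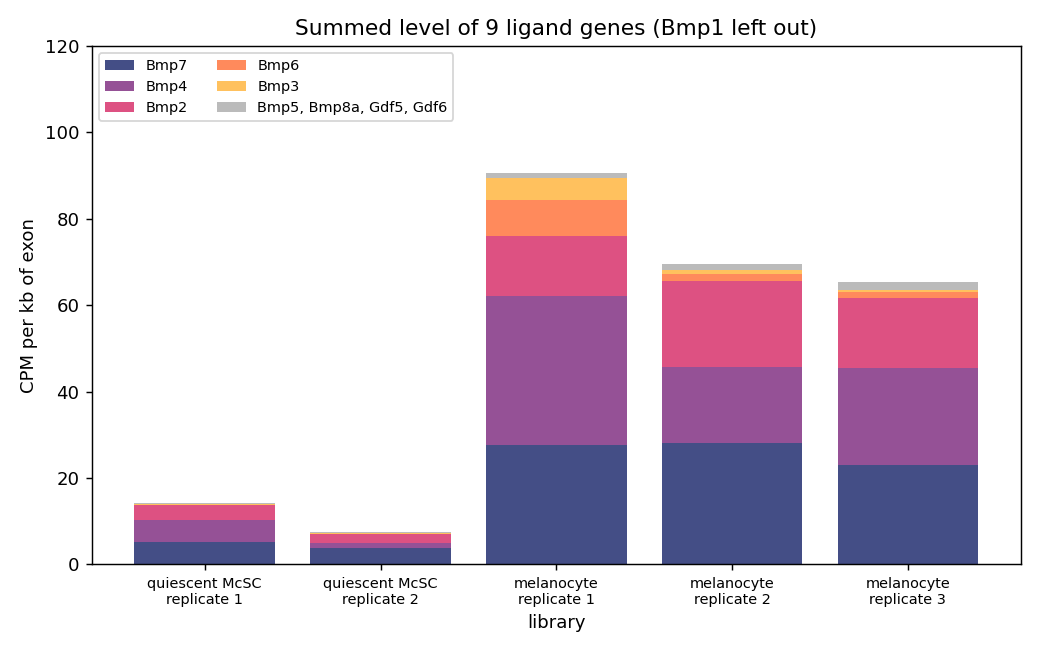
Summed level of the 9 ligand genes in each library, in CPM per kb of exon, with each colour giving the part of the genes named in the key. The 3 melanocyte bars reach 65.4 to 90.5, the 2 quiescent bars 7.39 and 14.2, and the parts of Bmp6 and Bmp3 are widest in melanocyte replicate 1.

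The 10 genes did not vary together among the melanocyte libraries. Between replicates 1 and 3 the log2 ratio (of CPM plus 0.1) was 3.52 for Bmp3 and 2.49 for Bmp6. It was 0.81 for Bmp1, 0.62 for Bmp4 and 0.26 for Bmp7. Bmp5 (-0.10), Bmp2 (-0.22), Gdf5 (-0.22), Bmp8a (-0.68) and Gdf6 (-1.01) were lower in replicate 1. Over the same pair the median log2 ratio was 1.94 for the fibroblast and dermal papilla markers, 0.08 for the hair follicle markers and -2.56 for the pigment lineage markers, with 0.01 for all tested genes. Among the fibroblast and dermal papilla markers, Col3a1, the gene of a dermal collagen, had 2100, 708.7 and 638.3 CPM in melanocyte replicates 1, 2 and 3 against 9.18 and 2.38 CPM in the quiescent libraries. Corin, a dermal papilla marker chosen here after its values were seen, had 449.1, 45.9 and 31.1 CPM. Of the same list, Dcn (554.7, 533.4 and 567.5 CPM) and Lpl (55.12, 74.57 and 78.48 CPM) were not highest in replicate 1. Bmp3 and Bmp6 were thus high in the library that was high in most of these markers and low in Dct. The part of other cells in the levels of Bmp3 and Bmp6 was not tested. Between the quiescent libraries, replicate 1 was higher for Bmp4 (log2 ratio 1.86), Bmp6 (1.29), Bmp8a (0.97), Bmp2 (0.81) and Bmp7 (0.50), where the median of the fibroblast markers was 0.77 and of the hair follicle markers 0.43. Bmp5 (-1.22) and Bmp1 (-0.26) were lower in quiescent replicate 1, and Bmp3 (0.01) was level. Without quiescent replicate 1 and melanocyte replicate 1 together, a setting added after the data were seen, 7 genes were still higher in melanocytes by edgeR. The log2 fold change was then 3.24 for Bmp2, 3.87 for Bmp4, 4.99 for Bmp6, 2.80 for Bmp7, 2.08 for Bmp3 and 0.69 for Bmp1, while Bmp5 (1.06) and Gdf6 (1.5) did not pass.

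**Figure D4:**
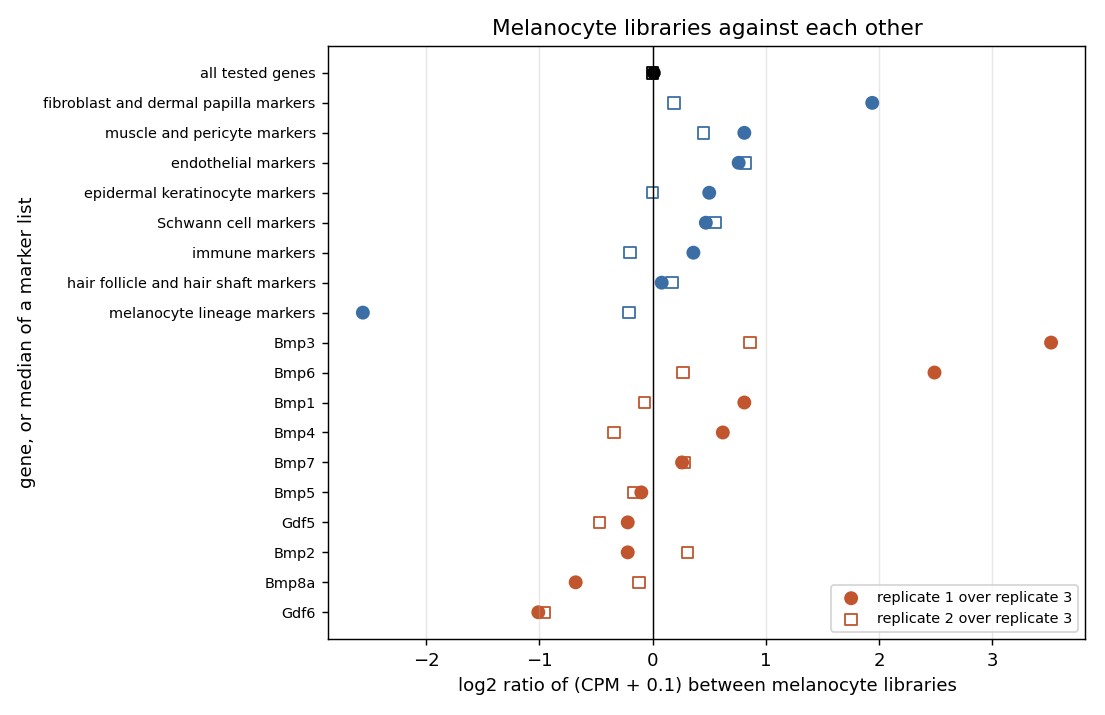
Log2 ratio of CPM plus 0.1 between melanocyte libraries, as filled circles for replicate 1 over replicate 3 and open squares for replicate 2 over replicate 3, for the 10 genes (orange), the medians of the marker lists (blue) and the median of all tested genes (black). Bmp3 and Bmp6 lie far right for replicate 1, as does the fibroblast and dermal papilla list, and the pigment lineage list lies far left.

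For each called gene with a mean of at least 1 CPM, the tested genes with the closest profile over the 5 libraries were found among 13825 genes by the Euclidean distance of centred log2 CPM. Bmp7 had Kpna2 (0.15), Trim59 (0.168) and Igf2bp2 (0.183) closest, and Bmp2 had Cd24a (0.183), Lhfpl1 (0.301) and Ctps (0.337). Bmp1 lay closest to Plxna3 (0.132), Slc26a11 (0.174) and Map1a (0.176). Bmp4 lay closest to Bicc1 (0.478), Epha3 (0.503) and Nsg1 (0.611), and Bmp6 to Olfml3 (0.433), Sox18 (0.481) and Svep1 (0.592). Bmp3 lay closest to D630003M21Rik (0.554), Clec14a (0.569) and Hoxa10 (0.719), and Bmp8a to Sncaip (0.477), Nmnat2 (0.486) and 2610318N02Rik (0.505). The smallest distance was thus 0.132 to 0.183 for Bmp1, Bmp2 and Bmp7, and 0.433 to 0.554 for Bmp3, Bmp4, Bmp6 and Bmp8a. These values were not set against the smallest distances of other genes. With 5 libraries in 2 groups, many called genes share such a profile.

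Other genes of the pathway, grouped by role, were called in both directions; over all tested genes the shares were 29.1% (melanocytes higher) and 26.2% (quiescent McSC higher). Of 12 other BMP and GDF ligand genes, 8 were tested: 1 was higher in melanocytes and 4 in quiescent McSC, with a median log2 fold change of -0.76. Bmp8b, the neighbour copy of Bmp8a, rose by a log2 fold change of 2.31 ± 0.51 (SE; edgeR adjusted p = 0.0102) at levels under 1 CPM. Bmp15, an oocyte ligand, had 9.87 and 9.85 CPM in the quiescent libraries and under 1 CPM in each melanocyte library (-3.87 ± 0.48 SE; edgeR adjusted p = 0.00111). Gdf1 was also lower in melanocytes (-1.58 ± 0.39 SE; edgeR adjusted p = 0.0155), but all of its exon bases are shared with Cers1. Gdf9 and Gdf15 were the other two lower genes. The count of 1 became 0 without either quiescent library, 3 without melanocyte replicate 1 and 2 without replicate 3; it was 3 with library size only or DESeq2 and 2 with RLE factors, limma-voom or no filter. The count of 4 became 1 without quiescent replicate 2 and 2 without melanocyte replicate 2.

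Of 12 receptor and co-receptor genes, 3 were higher in melanocytes, 3 higher in quiescent McSC and 6 were not called, with a median of -0.15; both shares are near those of all tested genes. Endoglin (Eng, -2.50 ± 0.23 SE; edgeR adjusted p = 0.000372) and its partner Acvrl1 (-2.61 ± 0.49 SE; 0.00544), receptors for the ligands BMP9 and BMP10, were lower in melanocytes. So was Acvr2a, a type II receptor (-0.52 ± 0.11 SE; edgeR adjusted p = 0.00887). The type I receptor gene Bmpr1a had 164.6 and 148.8 CPM in quiescent McSC and 186.0, 230.7 and 178.2 CPM in melanocytes, and did not pass (edgeR adjusted p = 0.101). The 3 that were higher, Bmpr1b, Bmpr2 and Acvr1, became 1 without quiescent replicate 1 and 0 without quiescent replicate 2 or melanocyte replicate 2.

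Of 20 antagonist and extracellular modulator genes, 18 were tested: melanocytes were higher in 9 and quiescent McSC in 3, with a median of 1.38. The antagonist Chrdl1 (4.54 ± 0.65 SE; edgeR adjusted p = 0.00195), the follistatin-like gene Fstl1 (4.21 ± 0.62 SE; 0.00218) and the BMP-binding Bmper (6.40 ± 0.98 SE; 0.0025) were higher. Like Bmp3 and Bmp6, the summed level of all 20 genes of this list was highest in melanocyte replicate 1. It was 952.5 CPM there against 529.8 and 400.2 CPM in replicates 2 and 3, and 246.1 and 239.4 CPM in quiescent McSC. The largest part in melanocyte replicate 1 was Fstl1, with 441.6, 246.8 and 147 CPM in melanocyte replicates 1, 2 and 3. Not every gene followed the sum: Bmper was highest in replicate 2 (30.3, 42.5 and 19.6 CPM) and Twsg1 lowest in replicate 1 (79.1, 83.3 and 87.1 CPM). The count of 9 became 5 without quiescent replicate 2. The 3 lower genes, Dand5, Nbl1 and Twsg1, became 1 without quiescent replicate 1 or melanocyte replicate 2, and 0 without quiescent replicate 2.

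Inside the cell, melanocytes were higher in 3 of 8 SMAD and Smurf genes and quiescent McSC in 4, with a median of -0.46. The inhibitory Smad7 (1.67 ± 0.15 SE; edgeR adjusted p = 0.000334) and Smad6 (2.57 ± 0.38 SE; 0.00226), which BMP signals are known to induce, were higher, and the ubiquitin ligase gene Smurf1 was lower (-1.07 ± 0.13 SE; 0.00108). Smad1 was the third gene that was higher. The 4 lower genes, Smad4, Smad5, Smurf1 and Smurf2, became 2 without quiescent replicate 1 and 1 without quiescent replicate 2. Of 9 genes known as BMP targets, 4 were higher and 3 lower, with a median of 0.84. Msx2 (5.64 ± 0.33 SE; edgeR adjusted p = 9.21e-05), Msx1 (6.64 ± 0.61 SE; 0.000393) and Dlx3 (7.02 ± 0.66 SE; 0.000422), which hair matrix and shaft cells are also known to express, were higher in the libraries where the hair follicle markers were higher, whose part was not tested. Id1 was higher as well, while Id3, Id4 and Hey1 were lower, and these 3 became 0 without quiescent replicate 2. Of 4 proprotein convertase genes, whose enzymes cut BMP precursors to the active form, 2 were lower in melanocytes and none was higher. These were Furin (-0.68 ± 0.16 SE; edgeR adjusted p = 0.0123) and Pcsk7 (-0.34 ± 0.12 SE; 0.0475), a count that became 1 without quiescent replicate 1, melanocyte replicate 2 or melanocyte replicate 3 and 0 without quiescent replicate 2. The direction of this tally turned with the scaling: with library size only, 1 convertase gene was higher in melanocytes and 0 were lower. After thinning, 1 was higher and 1 lower.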

How the data were processed

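Poly-A selected, non-stranded RNA was sequenced from 5 libraries of sorted cells, 2 of quiescent McSC and 3 of melanocytes, which the labels call biological replicates. The deposited file holds whole-number counts per gene and library, read here as raw counts. The submitters' processing notes name the build mm10, STAR 2.5.2a and Salmon 0.8.2 with no roles; which program counted reads per gene, and on which annotation, was not given in the sources used here. Of the 24100 genes, 24045 were matched by Entrez identifier to a RefSeq symbol (GRCm38.p6), and 3738 had no count.

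Counts were filtered with filterByExpr, scaled by TMM and tested two-sided in 1 fit of all 5 libraries with edgeR 4.0.16 (R 4.3.3), which gives each adjusted p. SEs come from the fold change and F statistic. CPM are TMM-normalized. Exon lengths and overlaps come from the GENCODE M21 annotation (mm10). A count of 3 served as floor for bounds. The procedure was tested on simulated data. Replicates differed well beyond sampling noise. All 10 genes, up to 3 called genes of smallest p in each pathway list, up to 2 marker genes of highest level in each marker list and the closest profiles were to be named. Not all of these marker genes were named, and other list genes were named after their values were seen. The genes and lists were chosen with earlier results of these data known. Alternatives were other scalings and filters, DESeq2 1.42.0, limma-voom (limma 3.58.1), a replicate block, thinning to the shallowest total and leaving out each library. Krt85 was the 1 list gene without a row.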

Additional observations from a re-analysis of the deposited data

How the results depend on the processing

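The number of the 10 genes higher in melanocytes was 7, and 5 to 8 when single libraries were left out: 5 without either quiescent library, where the other is assumed to vary like the melanocytes, and 8 without melanocyte replicate 1. It was 9 with library size only, 8 without a filter (Gdf5 then being called, adjusted p = 0.0185), 8 after thinning, 6 with at least 5 CPM in 2 libraries (6 tested), and 7 with RLE factors, with library sizes that omit the 20 top genes, by DESeq2, by limma-voom and with both replicate 1 libraries out. No gene was higher in quiescent McSC under any of the 15 alternatives, and no fold change was negative, so none had an unadjusted p under 0.05 in that direction. Over all tested genes, scaling by library size alone shifted the median log2 fold change from 0.03 to 0.26 and the share of calls higher in melanocytes from 52.6% to 63.7%. Bmp2, Bmp4, Bmp7 and Bmp8a were called under every alternative that tested them. Bmp5 was called with library size only (1.89, adjusted p = 0.042), by limma-voom (1.83, 0.0366) and after thinning (2.39, 0.0194), and Gdf6 with library size only (1.45, 0.0487). Between 6265 and 10086 genes were called in all. The shared replicate numbers were not taken as pairs, because the labels give no shared litter or day and the groups differ in age. Deviations of same-numbered libraries from their group means correlated at 0.04 and -0.06. These values cannot decide on pairing, because the deviations of 2 quiescent libraries from their mean mirror each other. With the replicate block 7 of the 10 genes were again higher in melanocytes, while in the pathway lists 2 other ligand genes were higher and 2 lower, 1 receptor gene was higher, and no convertase gene was lower. With at least 5 CPM in 2 libraries, 0 other ligand genes were higher and 1 lower, 5 antagonist genes were higher, and 1 convertase gene was lower, as without a filter. Gdf5, with 14 counts in all, was the gene that depth kept out of the test.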

Other observations

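Some other genes of the pathway, chosen after their values were seen, had their highest level in melanocyte replicate 1, as Bmp3 and Bmp6 did. Gdf10, a ligand close to Bmp3 in sequence, had 1.38 and 0.464 CPM in quiescent McSC replicates 1 and 2 and 31.1, 3.93 and 2.46 CPM in melanocyte replicates 1, 2 and 3; it was not called (edgeR adjusted p = 0.0511). Among the antagonists, Sostdc1 had 8.84 and 6.26 CPM against 101.4, 11.3 and 8.66 CPM, and was not called either (edgeR adjusted p = 0.121). Noggin (Nog) had 0.321 and 0.357 CPM against 7.28, 0.88 and 1.18 CPM, and was called higher in melanocytes (edgeR adjusted p = 0.0453). In these genes melanocyte replicates 2 and 3 lay close together and replicate 1 far above them. This library also had the highest sum of fibroblast and dermal papilla markers, and the part of such cells in these levels was not tested.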
